A study of Mus musculus with 9 samples.

Results

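Lhx2, Hand2, Gata4, Gata6, Ets1, Ets2, Tcf21 and Pparg are 8 transcription factors that are known from work on hepatic stellate cells (HSCs), the vitamin A-storing pericytes of the liver sinusoid. They were picked by gene symbol, and all 8 were found among the 24453 genes of the deposited table and passed the filter that left 13651 genes for testing. They were chosen with earlier results of these data known, although the rule itself names symbols and no values. Their levels were compared in steady-state HSCs and in activated fibroblasts from 2 mouse models of liver fibrosis.

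HSCs arise from the mesoderm of the septum transversum, and Lhx2, Hand2, Tcf21, Gata4 and Gata6 belong to the regulators that pattern this mesenchyme in the embryo. In adult liver, ETS and GATA factors bind enhancers that are open in quiescent HSCs, while Pparg, a lipid-sensing nuclear receptor, is known as a brake on HSC activation. On injury HSCs lose retinoid droplets, make collagen I and take on features of myofibroblasts.

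RNA was sequenced from HSCs, CCl4-fib and NASH-fib, all of the C57BL/6J strain, with 3 libraries per group and cells of several mice pooled in each library. P-values therefore measure the spread between pooled libraries. HSCs were collected from normal livers of wild-type mice by density gradient, and no sort on GFP is described for them. CCl4-fib were CD45- GFP+ cells sorted from Col1a2-GFP Tg mice that had been given carbon tetrachloride, a hepatotoxin, 2 times per week for 8 weeks. NASH-fib were CD45- GFP+ cells sorted from male MC/COL mice (MC4R-KO crossed with Col1a2-GFP Tg), which were put on WD, a Western diet, at 8 weeks of age and kept on it for 20 weeks. The ages of the mice behind the other 2 groups are not given in the sources used here. GFP reports the activity of the collagen α2(I) promoter, so the sort took every CD45- cell type with that promoter active. Between HSCs and the fibroblast groups, the genotype, the way of isolation, the sort on GFP, the treatment or diet and the disease changed together. They cannot be told apart. The genotype differed by the Col1a2-GFP transgene, and in NASH-fib also by MC4R-KO. Between CCl4-fib and NASH-fib, the MC4R genotype, the diet, the carbon tetrachloride and the weeks of treatment changed together and cannot be told apart. In bulk libraries, fewer cells of a type and less RNA per cell cannot be told apart either.

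Libraries held 3071070 to 3825522 reads on genes in HSCs, 4687349 to 5634273 in CCl4-fib and 3289758 to 5021156 in NASH-fib. A normalized value is the number of reads on a gene multiplied by a single factor per library, and 3 reads correspond to a value between 2.38 and 4.37. The 8 stellate markers Lrat, Reln, Pdgfrb, Des, Ngfr, Hgf, Colec11 and Ecm1 summed to values between 32529 and 40223 in HSCs, against 2997 to 7012 in CCl4-fib and 2356 to 5931 in NASH-fib. Of these 8, Pdgfrb (mean 752 in HSCs, 1171 in CCl4-fib and 1018 in NASH-fib) and Des (168, 334 and 543) had higher means in the fibroblasts and were not called, and Ecm1 was called lower in NASH-fib and not in CCl4-fib. HSC libraries also held markers of other liver cells. The 13 sinusoidal endothelial markers summed to 9095 to 18438 in HSCs, 330.12 to 407 in CCl4-fib and 1410 to 4465 in NASH-fib. The 11 macrophage markers summed to 5184 to 18064, 468 to 929.62 and 3005 to 6545 in the same order, and the 10 hepatocyte markers to 20322 to 43983, 1579 to 2065 and 5451 to 27397. Mesothelial markers ran the other way, with sums of 601 to 985 for 6 genes in HSCs, 16042 to 22184 in CCl4-fib and 25119 to 31713 in NASH-fib. No defining endothelial, macrophage, hepatocyte or mesothelial marker was at 0 reads in all libraries of a group.

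**Figure D1:**
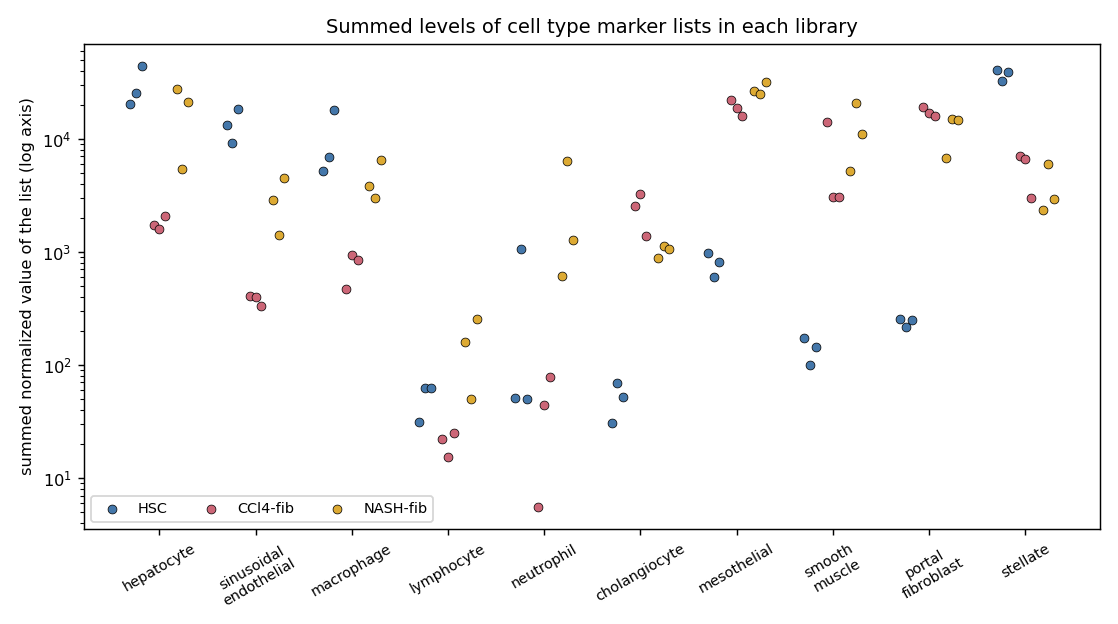
Summed normalized value (log axis) of each marker list in each of the 9 libraries, grouped by HSC, CCl4-fib and NASH-fib. Endothelial sums lie at 9095 or more in HSCs and at 4465 or less in the fibroblast libraries, and mesothelial sums lie at 985 or less in HSCs and at 16042 or more in the fibroblast libraries.

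Promoter windows of RefSeq (GRCm38.p6, 250 bases before to 50 after a start) matched 5 of the 8 factors at the start that the deposited table lists. Gata4, Gata6 and Ets1 had no entry. The windows of Lhx2, Hand2 and Tcf21 are shown. Lhx2 was taken because it had the largest fall of all 8 factors against HSCs. Hand2 and Tcf21, a pair of basic helix-loop-helix (bHLH) factors, were taken because their windows alone of these 5 held the GATA letters AGATAA. Capitals mark AGATAA and TAATTA on either strand.
Lhx2: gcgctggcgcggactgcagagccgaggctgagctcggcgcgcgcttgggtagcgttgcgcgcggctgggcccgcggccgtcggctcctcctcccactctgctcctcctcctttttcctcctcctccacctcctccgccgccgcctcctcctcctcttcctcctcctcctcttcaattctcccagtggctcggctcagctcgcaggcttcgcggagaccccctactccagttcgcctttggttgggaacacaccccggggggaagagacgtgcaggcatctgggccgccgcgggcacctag
Hand2: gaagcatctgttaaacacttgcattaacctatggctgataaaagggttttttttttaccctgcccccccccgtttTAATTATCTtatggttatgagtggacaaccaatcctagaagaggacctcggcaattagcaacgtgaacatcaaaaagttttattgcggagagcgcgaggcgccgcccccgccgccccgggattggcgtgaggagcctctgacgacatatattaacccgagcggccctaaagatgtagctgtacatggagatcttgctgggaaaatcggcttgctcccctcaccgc
Tcf21: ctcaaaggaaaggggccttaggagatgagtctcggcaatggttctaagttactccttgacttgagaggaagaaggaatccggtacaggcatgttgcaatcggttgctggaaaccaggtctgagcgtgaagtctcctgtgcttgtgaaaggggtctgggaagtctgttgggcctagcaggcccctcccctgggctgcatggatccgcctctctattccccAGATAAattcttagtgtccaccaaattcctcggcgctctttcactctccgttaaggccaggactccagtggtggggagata
These windows are chr2:38351058-38351357 on the plus strand, chr8:57320733-57321032 on the plus strand and chr10:22820094-22820393 on the minus strand, respectively. Hand2 held 1 match to AGATAA and 1 to TAATTA, the core letters of many homeodomain sites, and these matches overlap. Tcf21 held 1 match to AGATAA. Of 32851 RefSeq windows of this length, 11.2% held AGATAA and 5.29% held TAATTA. The ETS letters CGGAAG and the nuclear receptor letters AGGTCA, present in 16.9% and 16.3% of all windows, were found in the window at the Pparg start, with 1 match each, and in none of the windows at the starts of Lhx2, Hand2, Ets2 and Tcf21. The E-box CANNTG, present in 72.3% of all windows, matched 2 times in Hand2, 1 time each in Lhx2 and Pparg, and not in Ets2 or Tcf21. A match describes the letters in the window and no binding was measured.

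Of the 8 factors, 4 fell and 1 rose in CCl4-fib against HSCs, and 5 fell in NASH-fib against HSCs. A gene counted as changed where limma gave an adjusted p under 0.05 and the log2 fold change was 1 or more in either direction, with Benjamini-Hochberg adjustment over all 13651 genes. In CCl4-fib, 11.7% of all tested genes were called lower and 16.2% higher. In NASH-fib these shares were 4.3% and 8.23%. The median log2 fold change of the 8 factors was -1.53 in CCl4-fib, beside 0.18 for all tested genes, and -1.71 in NASH-fib, beside -0.022. Lhx2, Ets1 and Ets2 fell in both groups, which share their HSC libraries. The share of all tested genes called lower in both groups was not counted, so no conclusion is drawn from this overlap. In NASH-fib against CCl4-fib only Tcf21 was called, as lower, where 5.66% of tested genes were called lower and 4.97% higher. Of the genes called in that comparison 46.7% were higher in limma and 58.8% in edgeR, which scaled the reads by TMM. The median of the 8 factors in that comparison was 0.34, beside -0.11 for all tested genes.

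**Figure D2:**
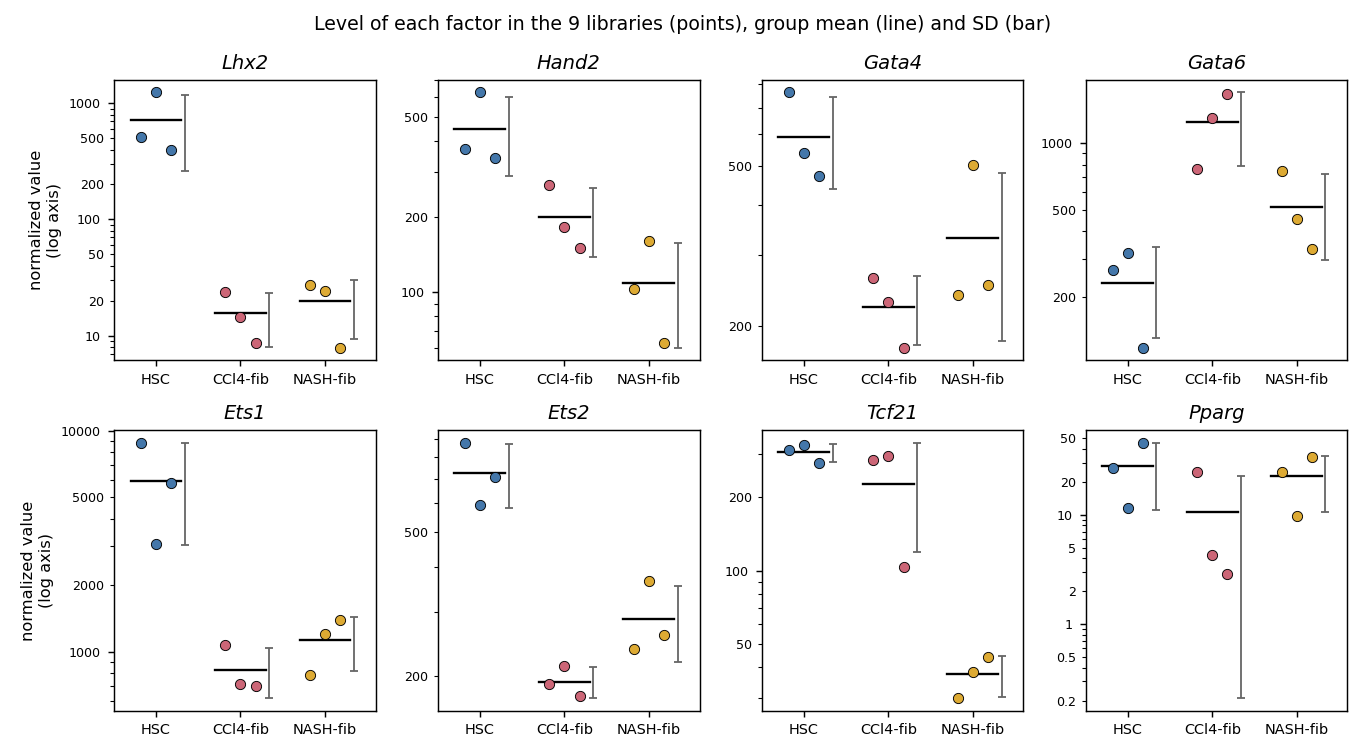
Normalized value (log axis) of each factor in the 9 libraries, replicates 1 to 3 from left to right within a group, with the group mean (line) and SD (bar, cut short where the SD exceeds the mean). The HSC libraries of Lhx2 lie at 393 or more and all fibroblast libraries at 27.2 or less, while Gata6 runs the other way.

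Lhx2 (NM_010710, chromosome 2, 38351308 to 38369737 in mm10, plus strand) encodes a LIM homeodomain factor, and mice without it are known to develop liver fibrosis. HSC replicates 1 to 3 had normalized values of 516, 1239 and 393, CCl4-fib replicates 23.8, 14.5 and 8.59, and NASH-fib replicates 27.2, 24.1 and 7.86. Behind the fibroblast values stood few reads, for example 30, 17 and 9 in CCl4-fib. Every fibroblast library lay below every HSC library, and the fibroblast groups overlapped with each other. The mean fell from 716 ± 457 (SD, n = 3) in HSCs to 15.6 ± 7.68 in CCl4-fib and 19.7 ± 10.4 in NASH-fib, 45.8 and 36.3 times lower. On the log2 scale Lhx2 fell by 5.36 (SE 0.63, adjusted p = 0.000194, limma) in CCl4-fib and fell by 5.10 (adjusted p = 0.000408, limma) in NASH-fib. Counted from the lowest fold change of the 13651 tested genes, Lhx2 stood at place 226 in CCl4-fib and at place 39 in NASH-fib. The fibroblast groups differed by 0.26 on the log2 scale, with a 95% interval from -1.14 to 1.65 (adjusted p = 0.814, limma).

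Hand2 (NM_010402, chromosome 8, 57320983 to 57324517, plus strand), a bHLH factor of the embryonic septum transversum mesenchyme, had values of 373, 625 and 342 in the HSC replicates. The CCl4-fib replicates had 268, 181 and 149.79, and the NASH-fib replicates 103, 159 and 62.9. All fibroblast libraries lay below all HSC libraries, and the NASH-fib values overlapped with those of CCl4-fib. In NASH-fib Hand2 fell by 2.08 on the log2 scale (SE 0.44, adjusted p = 0.0101, limma). For CCl4-fib the log2 fold change of Hand2 was -1.15 with an adjusted p of 0.0776 (limma), so it missed the call, although DESeq2 called it (adjusted p = 0.0277). The antisense gene Hand2os1 shares 461 exon bases with Hand2, and reads of the 2 genes cannot be told apart because both strands were counted.

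Tcf21 (NM_011545, chromosome 10, 22817275 to 22820128, minus strand) encodes a bHLH factor of mesenchymal progenitors in several organs. It was the factor of the 8 that was called between the fibrosis models. HSC replicates had values of 312, 328 and 277, CCl4-fib replicates 284, 294 and 103, and NASH-fib replicates 29.9, 38.3 and 44.2. HSC and CCl4-fib libraries overlapped, with replicate 3 of CCl4-fib well under the rest of its group, and every NASH-fib library lay below all 6 others. The mean of 37.5 ± 7.20 in NASH-fib was 8.16 times lower than the 306 ± 25.7 of HSCs and 6.06 times lower than the 227 ± 108 of CCl4-fib. On the log2 scale Tcf21 fell by 3.01 in NASH-fib against HSCs (SE 0.45, adjusted p = 0.00136, limma) and fell by 2.44 in NASH-fib against CCl4-fib (SE 0.45, adjusted p = 0.0134, limma). Against HSCs, its log2 fold change in CCl4-fib was -0.57, with a 95% interval from -1.57 to 0.43. The difference between NASH-fib and CCl4-fib was no longer called without replicate 1 (adjusted p = 0.0505) or replicate 2 (adjusted p = 0.0675) of CCl4-fib in limma.

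Gata4 (NM_008092, chromosome 14, 63198914 to 63245271, minus strand) is a zinc finger factor whose loss in liver mesenchyme is known to lead to HSC activation, and it is also expressed in sinusoidal endothelium and mesothelium. HSC replicates had values of 763, 539 and 473, CCl4-fib replicates 263, 229.64 and 177, and NASH-fib replicates 239.25, 502 and 254. CCl4-fib lay below HSCs throughout, while replicate 2 of NASH-fib reached into the HSC range. In CCl4-fib Gata4 fell by 1.39 on the log2 scale (SE 0.39, adjusted p = 0.0228, limma). This call was lost without replicate 1 of HSCs (adjusted p = 0.0874) and without replicate 2 (0.0679) or replicate 3 (0.0818) of CCl4-fib, in limma. For NASH-fib the log2 fold change of Gata4 was -0.89 (adjusted p = 0.202, limma).

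Gata6 (NM_010258, chromosome 18, 11052510 to 11085635, plus strand), the close relative of Gata4, was the factor that rose. HSC replicates had values of 265, 317 and 118, CCl4-fib replicates 768, 1298 and 1669.6, and NASH-fib replicates 752, 452 and 331. All fibroblast libraries exceeded all HSC libraries, and all CCl4-fib libraries exceeded all NASH-fib libraries, the latter by a narrow gap between 768 and 752. Gata6 rose in CCl4-fib by 2.45 on the log2 scale (SE 0.48, adjusted p = 0.00383, limma), 5.33 times in the means. In NASH-fib the log2 fold change was 1.16, with a 95% interval from 0.094 to 2.23 and an adjusted p of 0.175 (limma), which missed the call. The fold change of NASH-fib against CCl4-fib, -1.29 on the log2 scale, missed it too (adjusted p = 0.111, limma). Markers of mesothelial cells, which are known to express Gata4 and Gata6, were higher in both fibroblast groups as given above, and their part in the Gata6 values was not tested. The antisense gene 1010001N08Rik shares 93 exon bases with Gata6 and had values of 73.0, 137 and 133 in CCl4-fib, 4.08, 35.6 and 56.0 in NASH-fib and 18.7 or less in HSCs.

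Per kilobase of exon, Gata6 stood below Gata4 in all 3 HSC libraries, with a Gata6 to Gata4 ratio of 0.37, 0.63 and 0.27. CCl4-fib libraries had ratios of 3.11, 6.03 and 10.1, and NASH-fib libraries 3.35, 0.96 and 1.39. Ratios of HSCs did not overlap with those of either fibroblast group, and CCl4-fib and NASH-fib overlapped. For CCl4-fib this was fixed in advance, since Gata6 lay wholly above HSCs there and Gata4 wholly below. The Ets1 to Ets2 ratio, at 3.65 to 7.04 in HSCs, 2.34 to 3.95 in CCl4-fib and 2.32 to 3.77 in NASH-fib, overlapped between the groups. With 3 libraries a group, an exact two-sided permutation test cannot give a p under 0.1, so no such test was made.

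Ets1 (NM_011808, chromosome 9, 32696042 to 32757820, plus strand), a winged helix-turn-helix factor of endothelial cells, lymphocytes and HSCs, had values of 8809.5, 3081 and 5806 in the HSC replicates. The CCl4-fib replicates had 1068, 711 and 699, and the NASH-fib replicates 782, 1202 and 1389. Each fibroblast library lay below each HSC library, and the fibroblast groups overlapped. Ets1 fell by 2.74 in CCl4-fib (SE 0.43, adjusted p = 0.00108, limma) and fell by 2.30 in NASH-fib (SE 0.43, adjusted p = 0.00463, limma) on the log2 scale. Endothelial marker sums moved in the same direction, and their part in the Ets1 values was not tested. In HSC replicates 1 to 3 the endothelial sum was 13356, 9095 and 18438. The 9 lymphocyte markers summed to 31.6 to 62.6 in HSCs, 15.3 to 24.8 in CCl4-fib and 49.9 to 254 in NASH-fib. Their part in the Ets1 values was not tested either.

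Ets2 (NM_011809, chromosome 16, 95702407 to 95721049, plus strand), its paralog, had values of 878, 593 and 705 in the HSC replicates. The CCl4-fib replicates had 189.7, 213 and 176, and the NASH-fib replicates 237, 364 and 258. The 3 groups did not overlap, with HSCs highest and CCl4-fib lowest. Ets2 fell by 1.89 in CCl4-fib (SE 0.33, adjusted p = 0.00187, limma) and fell by 1.34 in NASH-fib (SE 0.33, adjusted p = 0.0201, limma) on the log2 scale. The call in NASH-fib was lost without replicate 1 (adjusted p = 0.0883) or replicate 3 (0.0522) of HSCs or replicate 3 of NASH-fib (0.0726), in limma. The fibroblast groups differed by 0.55, with a 95% interval from -0.17 to 1.27 (adjusted p = 0.294, limma).

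Pparg (NM_001308354, chromosome 6, 115362349 to 115490401, plus strand) was the lowest of the 8 factors in HSCs per length of exon. HSC replicates had values of 26.9, 11.7 and 45.4, CCl4-fib replicates 24.6, 4.25 and 2.86, and NASH-fib replicates 24.5, 9.8 and 33.4, from between 3 and 38 reads. The 3 groups overlapped. Its log2 fold change was -1.66 in CCl4-fib, with a 95% interval from -3.52 to 0.20 (adjusted p = 0.166, limma), and -0.26 in NASH-fib, with an interval from -2.12 to 1.59 (adjusted p = 0.929, limma). The interval in NASH-fib holds both a fall and a rise by a log2 of 1.

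**Figure D3:**
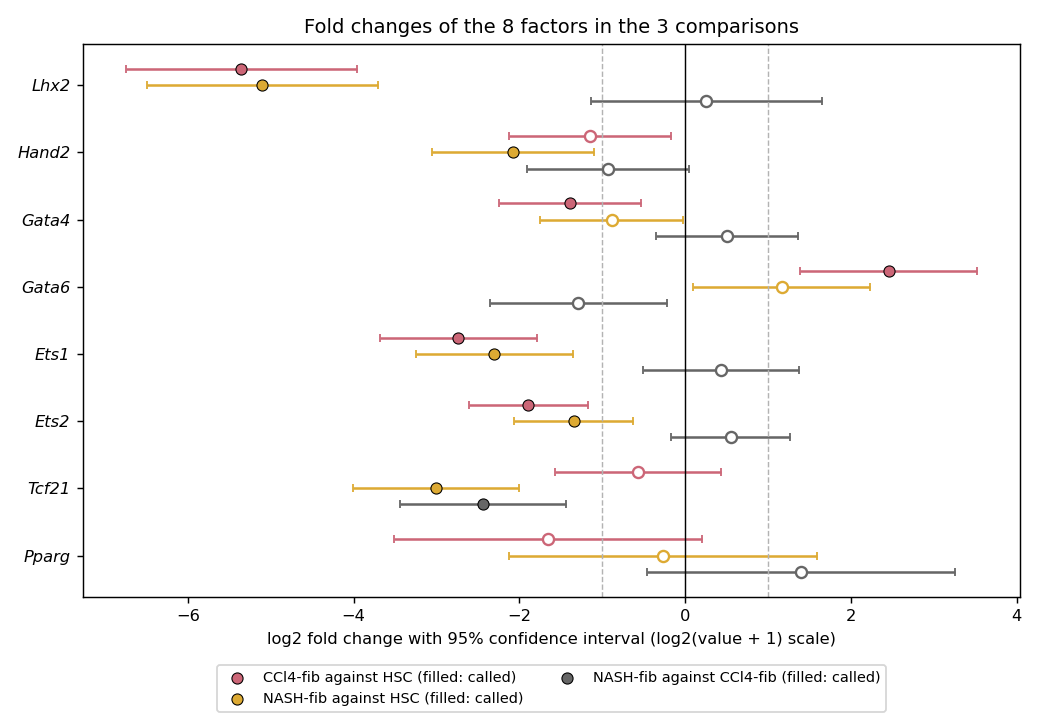
Log2 fold change of each factor with its 95% confidence interval in the 3 comparisons, filled where called and open where not, with dashed lines at -1 and 1. Lhx2 lies at -5.36 and -5.10 against HSCs, Gata6 is the factor with called values above 0, and Tcf21 at -2.44 is the filled point in NASH-fib against CCl4-fib.

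The counts of factors whose libraries did not overlap between groups were larger than the counts called. Against HSCs, 5 factors lay wholly below and 1 wholly above in each fibroblast group, where for CCl4-fib 20.9% of tested genes lay below and 27.8% above, and for NASH-fib 11.6% below and 12.7% above. In NASH-fib against CCl4-fib, Gata6 and Tcf21 lay wholly below and Ets2 wholly above, where 22% and 17.1% of tested genes did so.

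Libraries carry 1 of 4 dates in their labels, whose meaning is not stated, and HSCs and NASH-fib share a single date. With the date as a term in limma, 4 factors were called in CCl4-fib (Lhx2, Ets1 and Ets2 lower, Gata6 higher), 1 in NASH-fib (Lhx2), and none in NASH-fib against CCl4-fib, where Tcf21 had an adjusted p of 0.0560. The adjusted p then rose to 0.115 for Hand2, 0.0995 for Ets1, 0.321 for Ets2 and 0.0778 for Tcf21 in NASH-fib, and to 0.136 for Gata4 in CCl4-fib. Within the 2 dates that HSCs share with CCl4-fib, the log2 differences were -5.64 and -4.67 for Lhx2, -1.53 and -3.03 for Ets1, -1.64 and -1.72 for Ets2, -1.03 and -1.04 for Gata4 and 1.27 and 3.44 for Gata6. Within the date that HSCs share with NASH-fib they were -5.46 for Lhx2, -3.41 for Tcf21, -2.58 for Hand2, -1.98 for Ets1 and -1.32 for Ets2, and between the models Tcf21 had -3.21 and -1.30. Their signs were fixed in advance, since the libraries of these factors did not overlap between the groups, and they rest on 1 or 2 libraries a side.

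To compare levels between genes, values were divided by exon length. In HSCs Ets1 was highest, at 1168 ± 567 per kb, followed by Lhx2 at 313 ± 199.8, Tcf21 at 249.97 ± 21.0, Ets2 at 205 ± 40.5, Hand2 at 200.14 ± 69.5, Gata4 at 174 ± 44.8, Gata6 at 73.4 ± 32.4 and Pparg at 15.8 ± 9.58. The 5 from Lhx2 to Gata4 lay within the spread of their neighbours. In CCl4-fib Gata6 took the first place, at 391 ± 142 per kb, and Tcf21 at 186 ± 88.0 the second, while Lhx2 at 6.83 ± 3.35 was next to last. In NASH-fib Ets1 at 223 ± 61.6 and Gata6 at 161 ± 68.0 led, Tcf21 at 30.6 ± 5.88 was the sixth and Lhx2 at 8.61 ± 4.53 the last.

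**Figure D4:**
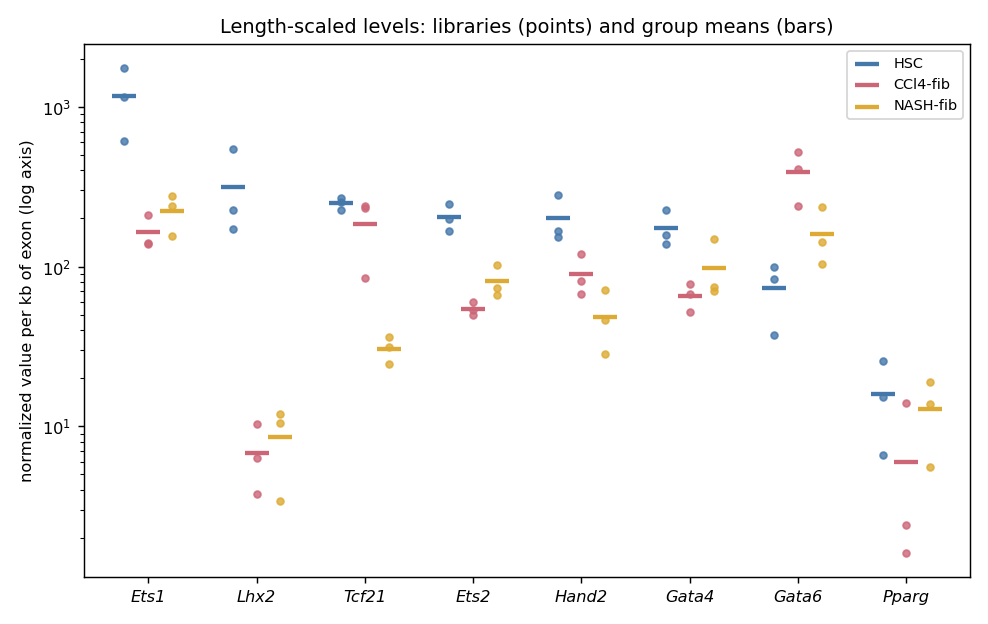
Normalized value per kilobase of exon (log axis) of the 8 factors in each library (points) with group means (bars), ordered by the HSC mean. Lhx2 moves from second in HSCs (313 per kb) to next to last or last in the fibroblasts, and Gata6 from seventh (73.4 per kb) to first in CCl4-fib (391 per kb).

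Relatives of these factors were taken from lists of each family. Beside their counts, 27.8% of all tested genes were called in CCl4-fib against HSCs and 12.5% in NASH-fib, in either direction. Of the other 11 LIM homeodomain genes, 3 had enough reads to be tested. Lhx9, which lies nearest to Lhx2 in the family, had 1 read in all HSC libraries together, 134 in CCl4-fib and 226 in NASH-fib, which gives ratios of 91.5 (95% exact counting interval 16.1 to 3640) and 187 (33.2 to 7415). It rose in both groups (adjusted p = 0.00019 and 9.81e-05, limma). Isl1, a factor of heart and motor neuron progenitors, rose from 1.68 ± 1.81 in HSCs to 52.8 ± 15.96 in CCl4-fib and 63.1 ± 42.8 in NASH-fib (adjusted p = 0.00159 and 0.00253, limma). Lhx6 fell in CCl4-fib (log2 fold change -3.42, adjusted p = 0.00278, limma) and had -1.90 in NASH-fib (0.0843, limma). The members of this family thus moved in opposite directions against HSCs, with a median log2 fold change of 4.53 and 4.56 over the 3 tested relatives.

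All GATA genes other than Gata1, which had 0 reads, were measured. Gata2, a factor of blood and endothelium, fell from 43.8 ± 5.61 in HSCs to 2.83 ± 4.18 in CCl4-fib and 2.91 ± 1.07 in NASH-fib (adjusted p = 0.00373 and 0.015, limma). Gata3 rose from 2.56 ± 2.41 to 40.6 ± 4.36 and 101 ± 47.4 (adjusted p = 0.00241 and 0.000852, limma). Gata5, a mesothelial and endocardial relative, rose from 17.6 ± 8.13 to 98.7 ± 18.4 and 78.9 ± 18.1 (adjusted p = 0.00259 and 0.00972, limma). Of the 3 tested GATA relatives, 2 rose and 1 fell in each fibroblast group. In NASH-fib 1 of the 3 was called without replicate 3 of NASH-fib, and 1 with the label date as a term.

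Of 24 further ETS genes, 19 were tested. In CCl4-fib 5 fell and 2 rose, and in NASH-fib 3 fell and 2 rose, with medians of -0.52 and -0.71. Erg and Fli1, factors of endothelial identity, fell in both groups, with log2 fold changes of -6.04 and -3.80 for Erg and of -2.99 and -2.39 for Fli1 in CCl4-fib and NASH-fib. Spic, a factor of iron-recycling macrophages, fell by 5.78 in CCl4-fib on the log2 scale and Spi1, the myeloid factor PU.1, fell by 3.83, where Spi1 had 2 reads in all 3 libraries together. Endothelial and macrophage marker sums fell beside these genes as given above. Etv1 fell by 2.71 in CCl4-fib, and Elk3 fell by 2.16 in NASH-fib. Elf4 (1.995) and Spib (2.97) rose in CCl4-fib, and the epithelial factors Elf3 (3.33) and Ehf (4.34) rose in NASH-fib. In CCl4-fib, Elf3 (2.17) and Ehf (0.34) were not called. The cholangiocyte markers summed to 875 to 1117 in NASH-fib, 1373 to 3229 in CCl4-fib and 30.4 to 69.9 in HSCs. Spib had 0, 0 and 7 reads in HSCs and 26, 27 and 8 in CCl4-fib, and its values overlapped. These calls were kept in 10 of 18 alternatives for Spib, 6 of 18 for Elf3 and 11 of 17 for Ehf. The part of these cells in the ETS values was not tested. In NASH-fib 3 of the 19 were called without replicate 1 of HSCs or replicate 2 of NASH-fib, and none with the label date as a term.

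Of the 5 tested bHLH relatives, 0 were called against HSCs in either group in limma, with 1 at an unadjusted p under 0.05 in each comparison, and edgeR and DESeq2 called 0 as well. Twist1, a factor of mesenchyme, had 38.1 ± 23.1 in HSCs, 69.5 ± 6.80 in CCl4-fib and 12.7 ± 6.99 in NASH-fib. It was lower in NASH-fib than in CCl4-fib (log2 fold change -2.48, adjusted p = 0.0282, limma), the same direction as Tcf21 in that comparison. Of the PPAR genes, Ppara, the fatty acid oxidation regulator of hepatocytes, fell in CCl4-fib with a log2 fold change of -3.68 (adjusted p = 0.00223, limma), with values of 195 ± 80.3 in HSCs, 14.1 ± 6.30 in CCl4-fib and 129 ± 79.6 in NASH-fib. Hepatocyte marker sums had the same order, and their part was not tested. Ppard was not called in any comparison, with log2 fold changes of 0.12 and -1.17 against HSCs.

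**Figure D5:**
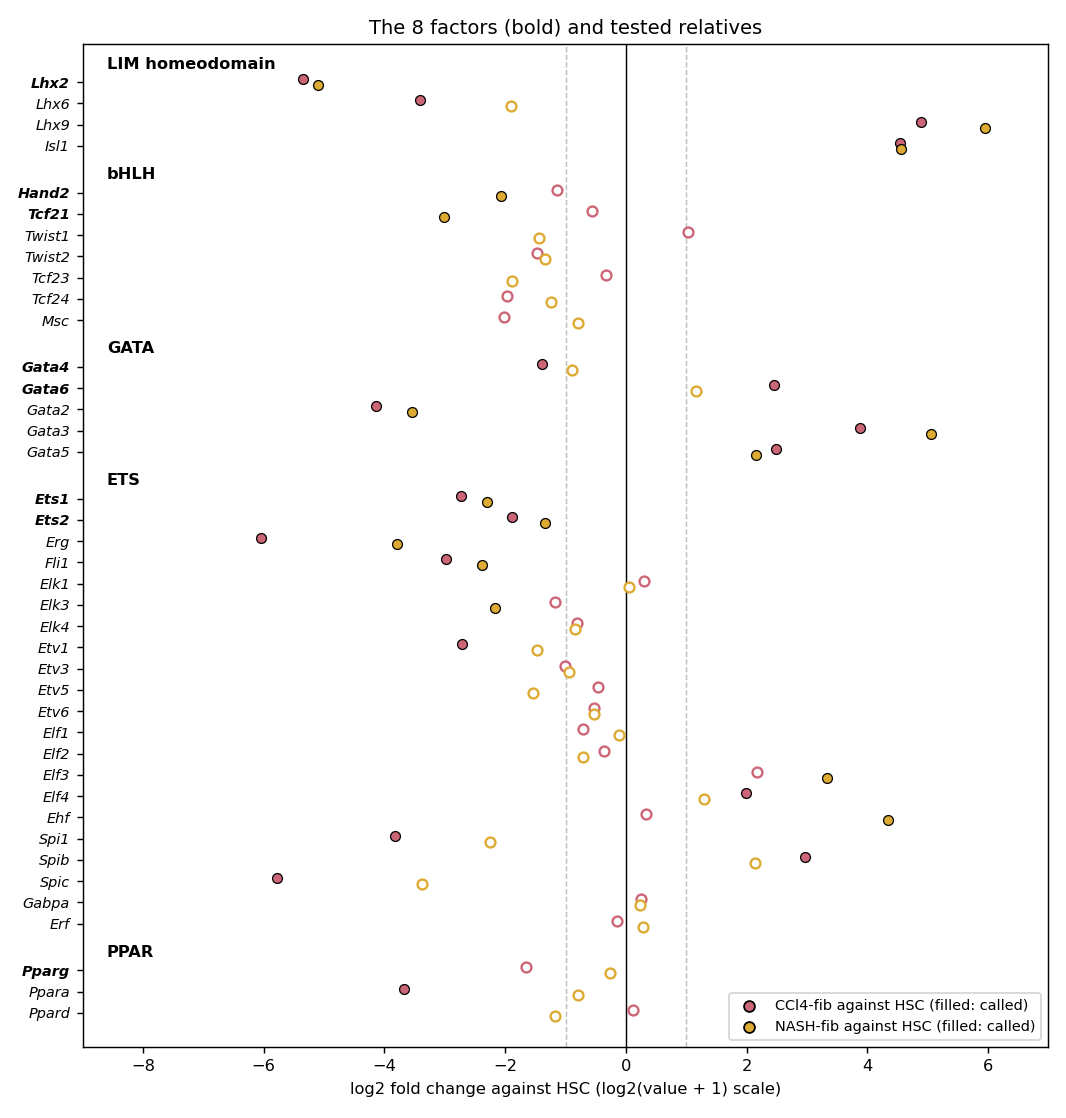
Log2 fold change against HSCs of the 8 factors (bold) and their tested relatives in CCl4-fib and NASH-fib, filled where called. Lhx9 (4.90 and 5.95) and Isl1 (4.53 and 4.56) lie opposite to Lhx2, and Erg (-6.04 and -3.80) and Fli1 (-2.99 and -2.39) lie on the side of Ets1.

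Partners of the factors were read from further lists. Beside their counts, 27.8% of all tested genes were called in CCl4-fib against HSCs and 12.5% in NASH-fib, in either direction. Among the 7 tested cofactors of Lhx2, Ldb2, which bridges LIM domains to DNA-bound complexes, fell from 1104 ± 169 in HSCs to 90.7 ± 38.7 in CCl4-fib and 383 ± 102 in NASH-fib (adjusted p = 0.000146 and 0.0324, limma). Lmo2, a LIM-only protein of blood and endothelium, fell in CCl4-fib with a log2 fold change of -4.91, Ssbp2 rose by 1.35 and 1.36 in CCl4-fib and NASH-fib, and Ssbp3 rose by 1.37 in CCl4-fib on the log2 scale. Ldb1 had log2 fold changes of 0.78 and -0.74. The 4 calls of this list in CCl4-fib became 2 without replicate 2 of HSCs, without replicate 1 or 3 of CCl4-fib, or with the date term. Its 2 calls in NASH-fib became 0 without any 1 HSC library, without replicate 2 of CCl4-fib, without replicate 3 of NASH-fib or with the date term, and 1 without replicate 1 or 3 of CCl4-fib or replicate 2 of NASH-fib. Of 7 bHLH partners, the E-protein gene Tcf4 fell in CCl4-fib with a log2 fold change of -2.18 (adjusted p = 0.000814, limma), while 0 of the 7 were called in NASH-fib in limma, with 3 at an unadjusted p under 0.05, 0 called by edgeR and 1 by DESeq2. The GATA partners Zfpm1 and Zfpm2 were not called by limma, edgeR or DESeq2 and had no unadjusted p under 0.05, with log2 fold changes in CCl4-fib of -1.46 (Zfpm1) and 0.53 (Zfpm2), and in NASH-fib of -1.75 (Zfpm1) and 0.47 (Zfpm2). Of 10 coregulators and partners of Pparg, Ppargc1a, a coactivator of mitochondrial biogenesis, rose from 2.83 ± 3.90 to 26.6 ± 8.76 in CCl4-fib and 58.4 ± 20.3 in NASH-fib (adjusted p = 0.00884 and 0.00315, limma), and Ncoa2 fell in CCl4-fib with a log2 fold change of -1.31 (adjusted p = 0.019, limma). The 2 calls of this list in CCl4-fib became 1 without replicate 2 or 3 of CCl4-fib, its 1 call in NASH-fib became 2 without replicate 2 of HSCs, and with the date term both counts were 0.

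Of 24 Pparg targets and adipogenic genes, 21 were tested, of which 7 fell and 4 rose in CCl4-fib and 1 rose in NASH-fib. The medians were -0.84 and -0.36. In CCl4-fib the largest falls were those of Cidec, Pck1 and Scd1 (-3.60, -3.60 and -2.80 on the log2 scale), genes of lipid droplets, gluconeogenesis and fatty acid desaturation. Cidec had 0 reads in CCl4-fib, so its mean was at least 8.32 times lower there than in HSCs, against a floor of 3 reads per library. That HSC mean rests mostly on replicate 3, with 2, 6 and 45 reads in replicates 1 to 3. Cidec kept its call in 14 of 18 alternatives. Angptl4 (3.91), Lipe (2.18) and Ucp2 (2.18) rose most in CCl4-fib, and Plin4 (3.68) rose in NASH-fib. Hepatocytes express Pck1, Scd1 and Cidec too, and hepatocyte marker sums fell in CCl4-fib. The part of hepatocytes in the values of this list was not tested. Leaving out 1 library at a time gave between 2 and 12 called genes of this list in CCl4-fib, with 2 without replicate 2 of CCl4-fib, 4 without its replicate 1 or 3 and 7 without replicate 2 of HSCs. The 1 call in NASH-fib was lost without replicate 1 or 2 of HSCs or replicate 2 or 3 of NASH-fib.

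Other regulators of mesenchyme moved in both directions. Of 14 developmental factors and nuclear receptors, 13 were tested, of which 4 fell and 3 rose in CCl4-fib and 1 fell and 5 rose in NASH-fib. The 7 calls in CCl4-fib became 4 without replicate 2 of HSCs or replicate 2 or 3 of CCl4-fib, and the 6 in NASH-fib became 3 without replicate 1 of HSCs or replicate 2 or 3 of NASH-fib and 2 with the date term. Wt1, a factor of mesothelium and of the HSC lineage in the embryo, rose from 48.8 ± 10.8 in HSCs to 1371 ± 443 in CCl4-fib and 414 ± 46.1 in NASH-fib (adjusted p = 2.59e-05 and 0.000313, limma). Wt1 also belongs to the mesothelial marker list. Meis1, a homeodomain factor, rose by 3.56 and 1.60 on the log2 scale in CCl4-fib and NASH-fib. Vdr, the vitamin D receptor, had 0 reads in HSCs, 253 in CCl4-fib and 106 in NASH-fib, so its values were at least 19.6 and 9.79 times higher, against a floor of 3 reads per library. Tbx3 rose by 3.29 in NASH-fib. Rarb, a retinoic acid receptor, had log2 fold changes of -1.74 and -2.04 and fell in both groups. Nr2f1, Foxf1 and Nr2f2, factors of mesoderm and vein, fell in CCl4-fib, with log2 fold changes of -2.14, -1.74 and -1.59.

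The state of the cells in which the factors were measured was read from further lists. Of 17 tested genes of quiescent HSCs, 12 fell in CCl4-fib and 13 in NASH-fib in limma, and edgeR and DESeq2 called as many. All called genes of this list were lower in limma. With the label date as a term, 6 were called in NASH-fib and 11 in CCl4-fib. In CCl4-fib the largest falls were those of Hhip, Colec10 and Vipr1. Hhip, an inhibitor of hedgehog signalling, had 4685 reads in HSCs and 1 in CCl4-fib, a ratio of 6862 (95% exact counting interval 1231 to 271087). Lrat, which makes retinyl esters, had log2 fold changes of -5.70 and -5.30. Of 10 activation genes, 8 rose in CCl4-fib, and 7 rose and 1, Postn, fell in NASH-fib. Acta2, which encodes smooth muscle actin, rose by 6.57 and 6.81. Col1a1 rose by 3.99 and 2.75 and Col1a2, whose promoter drives the GFP that was sorted on, by 3.36 and 1.98. The 7 smooth muscle markers summed to 99.0 to 172 in HSCs, 3051 to 14086 in CCl4-fib and 5205 to 20658 in NASH-fib, and the 10 portal fibroblast markers to 217 to 253, 15821 to 19182 and 6755 to 14976 in the same order. Casq2 had 0 reads in all HSC libraries. The part of such cells in the activation genes was not tested.

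Genes with the pattern most like each factor were ranked by Pearson's r of log2(value + 1) over the 9 libraries. Since libraries of a group share their condition, r mostly reflects the group means and is a description. Tnfrsf21 (0.986), Arap2 (0.984) and Syt9 (0.982) were most like Lhx2, with Tnfrsf21 at values of 741 to 1558 in HSCs, 45.8 to 68.9 in CCl4-fib and 48.2 to 149.63 in NASH-fib. Ubl3, Hlx and Tsen15 were most like Hand2 (0.970 to 0.947), Sod3, Akna and Fnbp1 most like Gata4 (0.970 to 0.960), and Phldb2, Lpl and Tusc3 most like Gata6 (0.984 to 0.978). Lpl is also on the list of Pparg targets, where it rose in CCl4-fib by 1.43. Sft2d2, Klhl6 and Nkd1 led for Ets1 (0.984 to 0.981), and Etnk1, Wnt9b and Disp2 for Ets2 (0.984 to 0.978). Scly, Prkd2 and Rin3 led for Tcf21 (0.967 to 0.964), with Scly at 64.3 to 108 in HSCs, 46.8 to 92.1 in CCl4-fib and 19.0 to 29.5 in NASH-fib. Pparg reached no more than 0.906, with Ly9.

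Among the 8 factors themselves, Ets1 and Ets2 had the highest r (0.954), followed by Gata4 with Ets2 (0.936). Gata6 had a negative r with every other factor, from -0.19 with Tcf21 to -0.86 with Ets1. Within HSCs, the library with the highest value differed between factors. Lhx2, Hand2, Gata6 and Tcf21 were highest in replicate 2, Gata4, Ets1 and Ets2 in replicate 1 and Pparg in replicate 3.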

How the data were processed

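The 9 libraries (3 per group) were analysed from 1 table. The deposited values are a signal per gene, made by the authors from single-end reads of SMARTer-amplified RNA, aligned to mm10 with STAR and counted on RefSeq exons of either strand with HOMER, at most 3 reads per position. The values of each library summed to between 4471988 and 4471995, so each was scaled by a single factor to a common total, and dividing by that factor gave whole reads for 100% of the values (tolerance 0.02 of a read). Per the file headers, a further library, not analysed here, went through the same normalization step. Of the 9 columns of values 0 were left unused.

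The members and all gene lists were chosen with earlier results of these data known. Lists and motifs were written by hand, and marker lists hold genes of general knowledge. The limma fit (3.58.1, R 4.3.3) used log2(value + 1) of the 13651 genes kept by filterByExpr of edgeR 4.0.16 (minimum count 10, on recovered reads), 1 model over the 3 groups and a mean-dependent prior spread, with Benjamini-Hochberg adjustment over all genes kept. Calls needed an adjusted p below 0.05 together with a log2 fold change of 1 or more in either direction. The fit was also run on simulated counts with genes changed in CCl4-fib alone and the spread taken from these data. That run does not bear on the pooling, the label dates or the comparisons of NASH-fib, and no conclusion is drawn from it. On the recovered reads, edgeR's quasi-likelihood test called 1876 genes higher and 1716 lower in CCl4-fib against HSCs, 1095 and 481 in NASH-fib against HSCs, and 802 and 563 in NASH-fib against CCl4-fib.

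Named genes were the 8 factors, the 3 genes with the highest r with each, up to 3 called genes per list, direction and comparison by size, lists of 5 or fewer genes in full, up to 2 genes per marker list, and Col1a1, Col1a2 and Acta2. Lrat, Nr2f2 and Etv1 fall outside this rule and were chosen after their values were seen, and the stellate marker list is named in full. Alternatives were TMM and upper-quartile scaling, edgeR, DESeq2 1.42.0, pseudocounts of 0.1 and 10, no filter, the 2 groups alone, a replicate block, the label date as a term, and each library left out. Intervals on reads cover counting error only. Promoter windows came from RefSeq (GRCm38.p6).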

Additional observations from a re-analysis of the deposited data

Results flagged for a closer look

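The change against HSCs differed between the fibrosis models for 18 genes of the lists of factors, relatives, partners, targets and cell state, marker lists left out, by the limma contrast of NASH-fib against CCl4-fib, which is the difference of the 2 changes. Values below are log2 differences of NASH-fib minus CCl4-fib, with adjusted p between 0.0134 and 0.0499. Of all tested genes, 10.6% were called in this contrast. The share among the tested genes of these lists was not counted, so no conclusion is drawn from the number 18. Among the 8 factors, the difference of Tcf21 was -2.44.

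Of the relatives and partners of the factors and other developmental regulators, Twist1 (-2.48), Ldb1 (-1.52), Meis1 (-1.95) and Wt1 (-1.67) were lower in NASH-fib. Ehf (4.00), Ppara (2.89), Ldb2 (2.14) and Tcf4 (1.26) were higher. Ldb2, the LIM domain partner, kept its call in 18 of 19 alternatives, Tcf21 in 16, Wt1 in 15, Ppara and Meis1 in 14, Twist1 in 13, Tcf4 in 10 and Ldb1 in 5 of 19, and Ehf in 7 of 18.

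Of the genes of cell state and lipid handling, Col1a1 (-1.25), Col1a2 (-1.39), Col3a1 (-1.60), Angptl4 (-2.67) and Ucp2 (-3.32) were lower in NASH-fib, and Colec10 (3.57), Cd36 (2.64), Cidec (3.73) and Scd1 (3.71) were higher. Hepatocyte marker sums were 1579 to 2065 in CCl4-fib and 5451 to 27397 in NASH-fib beside these genes, and their part in the differences was not tested. Cidec had 0 reads in CCl4-fib, so its level was at least 5.05 times higher in NASH-fib, against a floor of 3 reads per library. Of 19 alternatives, Ucp2 kept its call in 17, Scd1 in 14, Colec10 and Angptl4 in 11, Col3a1 in 10, Cd36 in 7 and Col1a1 and Col1a2 in 5 each, and Cidec in 10 of 18.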

How the results depend on the processing

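Each of the 24 fold changes of the factors was recomputed under 19 alternatives, which gave 434 values of the same direction and call out of 456, 15 lost calls, 2 gained calls and 5 reversed directions. The term for the label date lowered the factors called in NASH-fib against HSCs from 5 to 1 and in NASH-fib against CCl4-fib from 1 to 0. The cause was not tested. Leaving out 1 library gave 0 to 1 factors called in NASH-fib against CCl4-fib. The log2 fold change of Pparg in NASH-fib against HSCs turned to 0.46 with the date term and ran from -0.77 to 0.22 with a library left out, and that of Lhx2 in NASH-fib against CCl4-fib ran from -0.088 to 0.78. None of these was called. With the replicate block the counts of factors called were 5, 5 and 1, as without it. Over 9 same-numbered pairs the deviations from group means had r of -0.47 to 0.51, with 1 pair over 0.1, so the numbers were not taken to pair libraries. TMM scaling moved the median log2 fold change of all tested genes from 0.18 to 0.075 in CCl4-fib against HSCs and from -0.11 to 0.059 in NASH-fib against CCl4-fib, and it changed no call of a factor. Over all tested genes, the calls in NASH-fib against CCl4-fib (678 higher, 773 lower) became 1518 and 1161 with DESeq2, 472 and 457 with the block and 344 and 249 with the date term, and were fewest without replicate 2 of CCl4-fib (140 and 72) and without replicate 3 of NASH-fib (113 and 156). With the date term, those against HSCs became 549 and 119 in NASH-fib (1124 and 587 without it) and 1422 and 1054 in CCl4-fib (2209 and 1592 without it), and the latter were 1344 and 1102 without replicate 2 of CCl4-fib. Between the models, leaving out 1 library gave 0 to 6 called Pparg targets against 5. Fibroblast values of Lhx2 and all values of Pparg rest on few reads.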
